A study of Mus musculus with 70 samples.

Results

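Cholesterol genes were followed through the cerebral cortex and the striatum of young mice short of thyroid hormone action in brain. The list held 34 genes, taken by symbol from a written list of the pathway and matched to 34 of the 38293 gene identifiers counted in the series. Of these, 18 encode enzymes of cholesterol synthesis, 7 encode regulators and 9 serve transport, storage or removal. All 34 passed the filter on low counts in both tissues. The rule for the members used no measured value, but the list was chosen with earlier results of these data known.

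RNA was sequenced from 5 groups in each tissue, with 7 libraries in each of the 10 groups and 70 libraries in all. WT-MMI mice were male C57BL/6J wild types made hypothyroid. Their dams drank water with 0.02% methimazole, which stops hormone synthesis, and 1% KClO4, which stops the thyroid taking up iodide, between E9 and P21 (embryonic and postnatal days). MD mice came from a knockout line that lacks Dio2, the deiodinase that makes the active hormone T3 from T4 in brain. WT mice were untreated wild types, the controls of both groups. MOATP mice came from a knockout line that lacks Slco1c1, the gene of OATP1C1, which carries T4 into brain. WTa mice were the untreated wild types of that line and its controls. WT-MMI, MD and MOATP mice were taken at P21 to P23. The labels give no age for WT and WTa mice, no sex for any group but WT-MMI, and no word on whether each library came from its own animal, so p-values measure the spread between these libraries.

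Brain makes its own cholesterol, because lipoprotein cholesterol does not cross the blood-brain barrier. Acetyl-CoA is turned into mevalonate, then into isoprenoids and squalene, which is closed to lanosterol and trimmed to cholesterol. The transcription factor SREBP2 (Srebf2) drives these enzymes when sterol is low, once SCAP has escorted it to its activation. INSIG proteins retain SCAP when sterol is high. The oxysterol receptors LXR (Nr1h2, Nr1h3) drive export through Abca1, Abcg1 and Apoe when sterol is high. In the young brain oligodendrocytes use cholesterol for myelin, astrocytes export it on Apoe, and neurons remove it as 24-hydroxycholesterol through Cyp46a1. Thyroid hormone is known for its part in myelination at this age and, in liver, for raising Srebf2.

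SREBP2 works with NF-Y, which reads CCAAT boxes, so the promoters of 5 members that fell in the models and of 1 that was called in none of them (Nr1h2) are shown. RefSeq promoter windows of the mouse build GRCm38.p6, each 300 bases long from 250 bases before a transcription start to 50 after it, were held for 28 of the 34 members (39 windows). Capitals mark CCAAT on either strand (read as ATTGG on the other) and the sterol element core CACNCCAC, also on either strand. The windows of Hmgcs1, at chr13:119690101-119690400 (plus strand), Idi1, at chr13:8885356-8885655 (plus strand), and Cyp51, at chr5:4104648-4104947 (minus strand), are given first. Those of Msmo1, at chr8:64733529-64733828 (minus strand), Insig1, at chr5:28071162-28071461 (plus strand), and Nr1h2, at chr7:44553916-44554215 (minus strand), follow, all read 5′ to 3′ along the gene.
Hmgcs1: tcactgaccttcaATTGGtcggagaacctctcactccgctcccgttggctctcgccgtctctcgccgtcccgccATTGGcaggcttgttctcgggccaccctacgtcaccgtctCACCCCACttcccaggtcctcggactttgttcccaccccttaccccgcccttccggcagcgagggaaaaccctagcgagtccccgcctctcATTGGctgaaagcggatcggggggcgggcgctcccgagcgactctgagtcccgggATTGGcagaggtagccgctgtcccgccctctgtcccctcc
Idi1: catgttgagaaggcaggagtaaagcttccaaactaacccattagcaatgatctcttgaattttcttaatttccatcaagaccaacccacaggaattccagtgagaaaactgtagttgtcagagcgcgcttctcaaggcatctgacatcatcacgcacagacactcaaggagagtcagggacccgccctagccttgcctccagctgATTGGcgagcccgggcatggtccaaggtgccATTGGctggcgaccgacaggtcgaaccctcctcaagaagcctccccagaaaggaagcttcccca
Cyp51: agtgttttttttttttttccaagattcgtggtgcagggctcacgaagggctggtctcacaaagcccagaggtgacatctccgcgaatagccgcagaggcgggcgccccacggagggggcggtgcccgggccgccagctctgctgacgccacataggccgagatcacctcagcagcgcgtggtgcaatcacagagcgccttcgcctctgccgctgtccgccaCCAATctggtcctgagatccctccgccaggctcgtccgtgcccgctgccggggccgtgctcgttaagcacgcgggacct
Msmo1: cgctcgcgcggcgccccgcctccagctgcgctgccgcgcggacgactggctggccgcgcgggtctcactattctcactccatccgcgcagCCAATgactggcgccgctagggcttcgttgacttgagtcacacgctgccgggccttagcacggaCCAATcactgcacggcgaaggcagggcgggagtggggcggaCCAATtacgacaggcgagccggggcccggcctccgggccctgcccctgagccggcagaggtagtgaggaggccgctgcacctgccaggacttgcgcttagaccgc
Insig1: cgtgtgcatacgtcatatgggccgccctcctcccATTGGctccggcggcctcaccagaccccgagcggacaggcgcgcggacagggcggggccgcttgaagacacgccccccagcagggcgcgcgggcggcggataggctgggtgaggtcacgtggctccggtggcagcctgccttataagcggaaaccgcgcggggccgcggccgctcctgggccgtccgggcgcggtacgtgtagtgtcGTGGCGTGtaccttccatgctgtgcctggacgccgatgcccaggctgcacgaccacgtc
Nr1h2: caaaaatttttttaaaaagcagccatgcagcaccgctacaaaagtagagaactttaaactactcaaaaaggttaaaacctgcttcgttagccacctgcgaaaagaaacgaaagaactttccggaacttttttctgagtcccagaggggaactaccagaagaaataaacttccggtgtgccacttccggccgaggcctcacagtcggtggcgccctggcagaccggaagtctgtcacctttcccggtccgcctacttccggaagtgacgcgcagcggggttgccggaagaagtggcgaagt

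CCAAT stood in the windows of 14 of the 15 synthesis genes with a window, or 77.8% of their 18 windows, and in 37.4% of all 32851 windows. In the windows of regulators and of transport genes it stood in 38.5% and 37.5%. GGGCGG, read by SP1, which also works with SREBP2, stood in 83.3% of the synthesis windows and in 35.7% of all windows. Regulators had it in 61.5% of windows and transport genes in 62.5%. Hmgcs1 has 4 CCAAT boxes in the stretch shown, Msmo1 has 3, Idi1 has 2, Cyp51 and Insig1 have 1 each, and Nr1h2 has none. The windows shown do not stand for the whole list. Acat2 and Nr1h3, called lower in some model comparisons, had no CCAAT in their windows. Of the members called only higher, Srebf1 and Soat1 had it, and Abca1 and Apoe did not. The longer sterol element TCACNCCAC stood in the window of 1 member, Hmgcs1, and in 1.24% of all windows. Its core CACNCCAC, searched after that result was seen and contained in the longer element, stood in 7.69% of member windows (Acat2, Hmgcs1 and Insig1) and in 6.24% of all windows. AGGTCA repeated in the same direction after a gap of 4 bases, the kind of element that thyroid hormone receptors and LXR read, stood in no member window and in 0.015% of all windows. These are matches of letters on both strands and were not tested as sites. Whether they go with the calls was not tested.

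Gene counts ranged from 7802957 to 22485839 per cortex library and from 8983668 to 19464492 per striatum library, leaving out 3 libraries that stood apart. Placed by 300 tissue genes between the cortex wild types at 0 and the striatum wild types at 1, the library labelled cortex MOATP 7 lay at 0.938 and the library labelled striatum MOATP 7 at -0.056, while the others of their tissues lay from -0.121 to 0.107 and from 0.81 to 1.085. In the library labelled cortex MOATP 1, reads with several alignments made up 39.7%, where they made up 27.8% to 30.5% in the cortex libraries kept. The MOATP group therefore had 5 libraries in cortex and 6 in striatum, and its results are also given with all libraries as labelled. Levels are given as CPM, gene counts scaled by library size and TMM factors. Dio2 was at 6.22 ± 1.21 CPM in MD cortex, against 176 ± 20.6 CPM in WT cortex (SD, n = 7 each). In striatum it was at 5.16 ± 0.999 CPM in MD, against 110.5 ± 15.9 CPM in WT (SD, n = 7 each). Slco1c1 was at 45.6 ± 6.16 CPM in MOATP cortex (n = 5), against 84.96 ± 8.30 CPM in WTa (n = 7), and at 46.1 ± 3.68 CPM in MOATP striatum (n = 6), against 85.3 ± 4.56 CPM in WTa (n = 7). The counts cover the whole gene, so exons left in place still count.

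Cholesterol synthesis genes were lower in all 3 models and in both tissues, and the exporters Abca1 and Apoe were the members that rose in several comparisons. Changes are log2 ratios of the named group over its control, ± SE, from edgeR's quasi-likelihood test, and a gene is called where its p, adjusted over all genes tested by Benjamini-Hochberg, is under 0.05. In cortex, WT-MMI against WT called 25 of the 34 members, 3 higher and 22 lower, where 40% of all 16415 genes were called (19.9% higher and 20% lower). MD against WT called 1 higher and 18 lower in cortex, beside 22.9% of all genes (11.1% higher and 11.8% lower). MOATP against WTa called 16 lower and none higher in cortex, beside 21.7% of all genes (10.1% higher and 11.6% lower). At an unadjusted p under 0.05, edgeR had 1 higher in that comparison (Abca1), and DESeq2 called 0 higher. An edgeR fit of only MOATP and WTa called 3 higher: Abca1 (adjusted p = 0.00165), Apoe (adjusted p = 0.0471) and Lrp1 (adjusted p = 0.0417).

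Striatum gave like counts. WT-MMI against WT called 2 members higher and 21 lower there, beside 38.7% of all 16325 genes (19% higher and 19.7% lower). Reads in no annotated gene, as a share of all reads and alignments tallied in a library's table, were 9.28% to 10.4% in WT-MMI striatum, against 8.003% to 8.76% in WT, and ambiguous reads were 1.54% to 1.59% in WT-MMI, against 1.63% to 1.65% in WT. These ranges do not overlap, and their part in the calls was not tested. MD against WT called 1 higher and 21 lower, beside 21.6% of all genes (10.5% higher and 11.1% lower). MOATP against WTa called 3 higher and 22 lower, beside 25.1% of all genes (12.1% higher and 13% lower). WT-MMI and MD share the WT libraries, so their changes are not independent of each other. Of the 34 members, 12 were called lower in all 6 comparisons (Hmgcs1, Mvd, Fdft1, Cyp51, Msmo1, Nsdhl, Sc5d, Dhcr7, Insig1, Stard4, Cyp46a1 and Npc2) and 18 in at least 5. Only higher, in 1 or more, were 4 (Srebf1, Abca1, Apoe and Soat1), 0 were called in opposite directions, and 4 were called in none (Scap, Nr1h2, Lrp1 and Npc1). These tallies are of the edgeR fit of all groups: with all libraries as labelled, 4 of the 12 were still lower in all 6 (Sc5d, Dhcr7, Stard4 and Cyp46a1). A block on same-numbered libraries also kept 4 (Cyp51, Sc5d, Stard4 and Cyp46a1). How many of all genes meet the same tallies was not counted, so these tallies have no background beside them. In this bulk RNA, fewer cells of a type and less RNA per cell cannot be told apart.

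**Figure D1:**
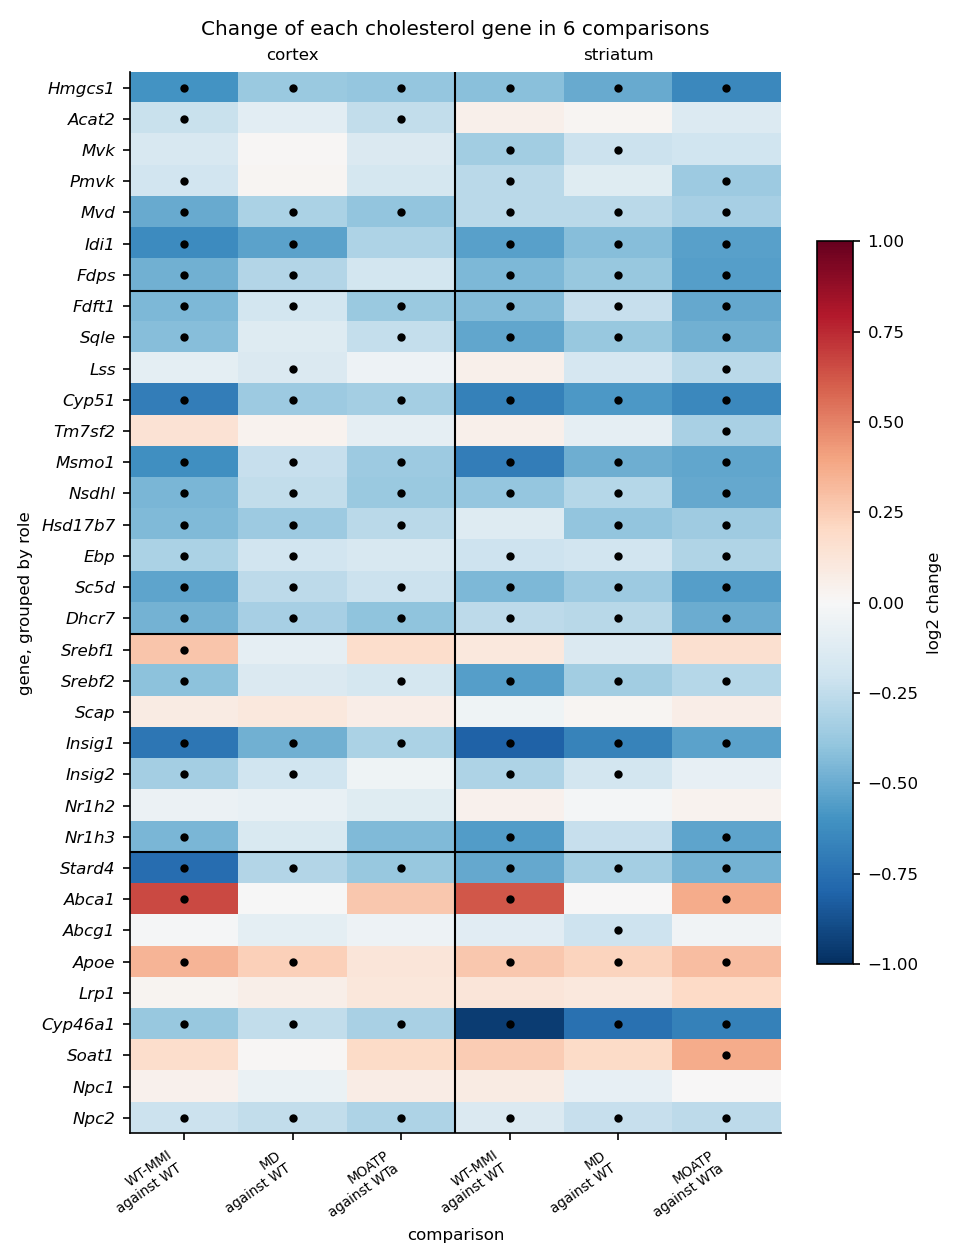
Log2 change of each of the 34 genes (rows, grouped by role) in 6 comparisons (columns), with blue for lower and red for higher in the model, and a dot where the adjusted p is under 0.05. The rows of the synthesis enzymes are blue nearly throughout, while Abca1 and Apoe are the reddest rows.

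Of the 18 synthesis genes, 15, 13 and 11 were called lower in cortex of WT-MMI, MD and MOATP, and 14, 14 and 16 in striatum, with none called higher (edgeR had 0 higher at an unadjusted p under 0.05, and DESeq2 called none higher). Their median log2 changes in cortex were -0.45 in WT-MMI, -0.24 in MD and -0.26 in MOATP, where the medians of all genes tested were 0.01 in each. In striatum the synthesis medians were -0.37, -0.28 and -0.49 in the same order of models, again with medians of 0.01 over all genes. Of all 34 members, 16 had every WT-MMI cortex library below every WT library, which 8.05% of all genes did. MD and WT cortex libraries stood apart in this way for 3 members (3.37% of all genes), and MOATP and WTa cortex libraries for 12 (7.1% of all genes). In striatum the numbers were 11 members in WT-MMI (8.52% of all genes), 9 in MD (3.49%) and 17 in MOATP (6%). The models lay wholly above their controls for Abca1 in WT-MMI, in cortex (where 6.21% of all genes did) and in striatum (6.69%), and for 2 members in MOATP striatum (4.96%), Abca1 and Apoe.

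Hmgcs1, which makes HMG-CoA from acetoacetyl-CoA and acetyl-CoA, is an early enzyme of the mevalonate steps and fell in all 6 comparisons. Hmgcs1 in cortex had lowest, median and highest values of 247, 281 and 289.8 CPM in WT-MMI and 246, 344 and 386 CPM in MD, against 363, 428 and 456 CPM in WT. Hmgcs1 was at 338, 338, 350.4, 342 and 271 CPM in the 5 MOATP libraries, against 386, 417 and 512 CPM in WTa. For Hmgcs1 in cortex, the WT-MMI and MOATP libraries all lay below those of their controls, and the MD libraries overlapped theirs, and the log2 changes were -0.60 ± 0.08 in WT-MMI, -0.37 ± 0.08 in MD and -0.39 ± 0.09 in MOATP, with adjusted p of 5.17e-07, 9.89e-04 and 0.00199. Hmgcs1 in striatum had lowest, median and highest values of 409, 470.1 and 528 CPM in WT-MMI and 301, 494 and 569 CPM in MD, against 593, 609 and 727 CPM in WT. Hmgcs1 in MOATP striatum had 344, 416 and 451 CPM, against 547, 653 and 675 CPM in WTa. For Hmgcs1 in striatum, every library of the 3 models lay below every control library, and the log2 changes were -0.42 ± 0.10 in WT-MMI, -0.50 ± 0.10 in MD and -0.64 ± 0.11 in MOATP, with adjusted p of 0.00117, 3.24e-04 and 2.32e-05. The 7 MD libraries were uneven for this gene: in order of their label numbers they had 246, 266, 276, 345, 344, 380.3 and 386 CPM in cortex and 301, 331, 380.2, 496, 494, 544 and 569 CPM in striatum, so the libraries numbered 1, 2 and 3 were the lowest in both tissues. Insig1 in the same libraries had 57.9, 58.8, 57.5, 55.5, 39.5, 41.1 and 44.7 CPM in cortex and 56.7, 60.1, 62.9, 56.1, 47.1, 46.7 and 49.8 CPM in striatum, and there the libraries numbered 1, 2 and 3 were the highest in both tissues.

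Mvd, the decarboxylase that makes isopentenyl diphosphate, fell in all 6 comparisons. Mvd in cortex ran from 16.8 to 21.98 CPM in WT-MMI (median 18.1) and from 18 to 23.4 CPM in MD (median 22.6), against 19.7 to 30.1 CPM in WT (median 27.1). It was at 24.8, 19.1, 20.2, 17.8 and 17.7 CPM in the 5 MOATP libraries, against 24 to 29.3 CPM in WTa (median 25.8). For Mvd in cortex, the libraries of each of the 3 models overlapped those of their controls, and the log2 changes were -0.50 ± 0.09 in WT-MMI, -0.32 ± 0.09 in MD and -0.39 ± 0.09 in MOATP, with adjusted p of 1.18e-05, 0.00661 and 0.00202. Mvd in striatum ran from 22.6 to 36.4 CPM in WT-MMI (median 30.5) and from 25.6 to 32.5 CPM in MD (median 29.99), against 32.1 to 38.8 CPM in WT (median 35.7). It ran from 23.4 to 28.1 CPM in MOATP (median 26.5), against 29.6 to 37.2 CPM in WTa (median 33.1). For Mvd in striatum, the MOATP libraries all lay below those of their controls, and the WT-MMI and MD libraries overlapped theirs, and the log2 changes were -0.27 ± 0.08 in WT-MMI, -0.27 ± 0.08 in MD and -0.33 ± 0.08 in MOATP, with adjusted p of 0.00576, 0.0106 and 0.00290.

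Idi1, the isomerase of isopentenyl diphosphate, was the enzyme of the list with the lowest level per kb of exon in wild types and was called lower in all comparisons but MOATP cortex. Idi1 in cortex had lowest, median and highest values of 1.10, 1.93 and 2.32 CPM in WT-MMI and 1.43, 1.72 and 2.75 CPM in MD, against 1.82, 2.62 and 3.74 CPM in WT. Idi1 was at 1.88, 1.99, 2.81, 2.53 and 1.46 CPM in the 5 MOATP libraries, against 1.52, 2.58 and 3.82 CPM in WTa. For Idi1 in cortex, the libraries of each of the 3 models overlapped those of their controls, and the log2 changes were -0.63 ± 0.19 in WT-MMI, -0.54 ± 0.19 in MD and -0.31 ± 0.20 in MOATP, with adjusted p of 0.00676, 0.0355 and 0.284. Idi1 in striatum had lowest, median and highest values of 2.14, 3.005 and 3.69 CPM in WT-MMI and 1.87, 3.46 and 4.02 CPM in MD, against 3.17, 4.32 and 5.12 CPM in WT. Idi1 in MOATP striatum had 2.25, 2.93 and 3.67 CPM, against 3.64, 4.17 and 4.96 CPM in WTa. For Idi1 in striatum, the libraries of each of the 3 models overlapped those of their controls, and the log2 changes were -0.54 ± 0.14 in WT-MMI, -0.42 ± 0.14 in MD and -0.55 ± 0.15 in MOATP, with adjusted p of 0.00194, 0.0243 and 0.00661.

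Fdps makes farnesyl diphosphate, the branch point to sterols and to prenylated proteins, and was called lower in all comparisons but MOATP cortex. Fdps in cortex ran from 8.52 to 9.71 CPM in WT-MMI (median 9.02) and from 7.88 to 13.1 CPM in MD (median 10.4), against 10.7 to 15.1 CPM in WT (median 12.2). It was at 11.3, 11.01, 9.21, 8.77 and 9.62 CPM in the 5 MOATP libraries, against 10.98 to 12.2 CPM in WTa (median 11.2). For Fdps in cortex, the WT-MMI libraries all lay below those of their controls, and the MD and MOATP libraries overlapped theirs, and the log2 changes were -0.48 ± 0.08 in WT-MMI, -0.30 ± 0.08 in MD and -0.19 ± 0.09 in MOATP, with adjusted p of 8.93e-06, 0.00655 and 0.134. Fdps in striatum ran from 11.7 to 16.2 CPM in WT-MMI (median 12.4) and from 11.5 to 15.1 CPM in MD (median 14.04), against 13.8 to 23.8 CPM in WT (median 16.9). It ran from 10.1 to 13.4 CPM in MOATP (median 12.1), against 15.7 to 20.0 CPM in WTa (median 17.3). For Fdps in striatum, the MOATP libraries all lay below those of their controls, and the WT-MMI and MD libraries overlapped theirs, and the log2 changes were -0.45 ± 0.09 in WT-MMI, -0.38 ± 0.09 in MD and -0.55 ± 0.10 in MOATP, with adjusted p of 1.43e-04, 0.00202 and 4.94e-05.

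The other mevalonate enzymes were called in fewer comparisons. Acat2, the acetoacetyl-CoA thiolase, was called lower in cortex in WT-MMI, at -0.23 (adjusted p = 0.00283), and in MOATP, at -0.25 (adjusted p = 0.00527), and in no striatum comparison. Reads of Acat2 and its close copy Acat3 may not be told apart fully. Mvk, mevalonate kinase, was called lower only in striatum, at -0.35 (adjusted p = 3.95e-04) in WT-MMI and -0.21 (adjusted p = 0.0438) in MD. Pmvk, which adds the next phosphate, was at -0.19 (adjusted p = 0.0157) in WT-MMI cortex, -0.27 (adjusted p = 0.00297) in WT-MMI striatum and -0.36 (adjusted p = 4.58e-04) in MOATP striatum, and was not called in MD.

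Fdft1, squalene synthase, commits farnesyl diphosphate to sterols and fell in all 6 comparisons. It overlaps Ctsb in the annotation, and the reads carry no strand. Fdft1 in cortex ran from 36.1 to 43.1 CPM in WT-MMI (median 41.3) and from 44.6 to 54.7 CPM in MD (median 47.1), against 50.1 to 61.4 CPM in WT (median 55.1). It was at 53.1, 50.8, 48.8, 46.3 and 42.8 CPM in the 5 MOATP libraries, against 57.7 to 68.4 CPM in WTa (median 63.9). For Fdft1 in cortex, the WT-MMI and MOATP libraries all lay below those of their controls, and the MD libraries overlapped theirs, and the log2 changes were -0.45 ± 0.06 in WT-MMI, -0.18 ± 0.06 in MD and -0.37 ± 0.06 in MOATP, with adjusted p of 4.56e-08, 0.0169 and 2.04e-05. Fdft1 in striatum ran from 39.8 to 51.1 CPM in WT-MMI (median 46.1) and from 50.4 to 55.97 CPM in MD (median 52.1), against 58.9 to 65.5 CPM in WT (median 61.8). It ran from 46.4 to 56.2 CPM in MOATP (median 49.7), against 65.1 to 78.3 CPM in WTa (median 73.3). For Fdft1 in striatum, every library of the 3 models lay below every control library, and the log2 changes were -0.43 ± 0.05 in WT-MMI, -0.23 ± 0.05 in MD and -0.51 ± 0.05 in MOATP, with adjusted p of 3.81e-09, 4.20e-04 and 5.69e-10.

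Cyp51, lanosterol demethylase, was among the largest falls in WT-MMI cortex and in the striatum of both knockout lines. The gene overlaps Akap9 in the annotation. Cyp51 in cortex had lowest, median and highest values of 58.8, 69.2 and 72.9 CPM in WT-MMI and 74.6, 85.3 and 93.4 CPM in MD, against 98.3, 109.5 and 123 CPM in WT. Cyp51 was at 91.8, 86.2, 94.97, 81.1 and 71.3 CPM in the 5 MOATP libraries, against 102, 106 and 118 CPM in WTa. For Cyp51 in cortex, every library of the 3 models lay below every control library, and the log2 changes were -0.69 ± 0.06 in WT-MMI, -0.36 ± 0.06 in MD and -0.34 ± 0.06 in MOATP, with adjusted p of 1.03e-12, 4.69e-06 and 8.1e-05. Cyp51 in striatum had lowest, median and highest values of 94.7, 114 and 130 CPM in WT-MMI and 95.5, 122 and 146 CPM in MD, against 160.1, 179 and 206 CPM in WT. Cyp51 in MOATP striatum had 96.8, 108 and 118 CPM, against 145, 169.6 and 184 CPM in WTa. For Cyp51 in striatum, every library of the 3 models lay below every control library, and the log2 changes were -0.68 ± 0.08 in WT-MMI, -0.57 ± 0.08 in MD and -0.65 ± 0.08 in MOATP, with adjusted p of 4.08e-09, 2.73e-07 and 9.3e-08.

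Msmo1, the methylsterol oxidase that acts after Cyp51, fell in all 6 comparisons. Msmo1 in cortex had lowest, median and highest values of 60.3, 69.3 and 75.98 CPM in WT-MMI and 70.1, 93.9 and 106 CPM in MD, against 90.01, 105 and 116 CPM in WT. Msmo1 was at 102, 89.8, 91.5, 85.2 and 76.7 CPM in the 5 MOATP libraries, against 109, 114 and 122 CPM in WTa. For Msmo1 in cortex, the WT-MMI and MOATP libraries all lay below those of their controls, and the MD libraries overlapped theirs, and the log2 changes were -0.61 ± 0.07 in WT-MMI, -0.23 ± 0.07 in MD and -0.36 ± 0.07 in MOATP, with adjusted p of 3.45e-09, 0.0106 and 3.47e-04. Msmo1 in striatum had lowest, median and highest values of 76.7, 88.9 and 108 CPM in WT-MMI and 88.6, 109 and 118 CPM in MD, against 132, 146 and 162 CPM in WT. Msmo1 in MOATP striatum had 88.4, 106 and 115 CPM, against 134, 149 and 161 CPM in WTa. For Msmo1 in striatum, every library of the 3 models lay below every control library, and the log2 changes were -0.69 ± 0.07 in WT-MMI, -0.49 ± 0.07 in MD and -0.52 ± 0.07 in MOATP, with adjusted p of 5.55e-10, 1.61e-06 and 1.33e-06.

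Nsdhl, which works with Msmo1 in removing methyl groups, fell in all 6 comparisons too. Nsdhl in cortex ran from 17.5 to 21.1 CPM in WT-MMI (median 20.5) and from 18.8 to 25.4 CPM in MD (median 23.6), against 24.4 to 31.7 CPM in WT (median 26.9). It was at 24.03, 23.4, 24.9, 25.8 and 21.2 CPM in the 5 MOATP libraries, against 28.8 to 32.1 CPM in WTa (median 31.1). For Nsdhl in cortex, the WT-MMI and MOATP libraries all lay below those of their controls, and the MD libraries overlapped theirs, and the log2 changes were -0.45 ± 0.06 in WT-MMI, -0.25 ± 0.06 in MD and -0.37 ± 0.07 in MOATP, with adjusted p of 1.47e-07, 0.00243 and 4.28e-05. Nsdhl in striatum ran from 20.96 to 30.0 CPM in WT-MMI (median 25.9) and from 23.2 to 31.1 CPM in MD (median 26.9), against 28.6 to 37.1 CPM in WT (median 33.5). It ran from 22.1 to 29.5 CPM in MOATP (median 25.6), against 27.7 to 40.01 CPM in WTa (median 37.6). For Nsdhl in striatum, the libraries of each of the 3 models overlapped those of their controls, and the log2 changes were -0.39 ± 0.08 in WT-MMI, -0.28 ± 0.08 in MD and -0.52 ± 0.09 in MOATP, with adjusted p of 1.71e-04, 0.00942 and 1.57e-05.

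Sc5d, the sterol desaturase near the end of the pathway, fell in all 6 comparisons. Sc5d in cortex ran from 39.1 to 46.6 CPM in WT-MMI (median 44.1) and from 48.7 to 59.4 CPM in MD (median 51.5), against 58.2 to 68.1 CPM in WT (median 63.3). It was at 57.5, 53.98, 55.2, 52.9 and 45.5 CPM in the 5 MOATP libraries, against 56.5 to 71.8 CPM in WTa (median 60.5). For Sc5d in cortex, the WT-MMI libraries all lay below those of their controls, and the MD and MOATP libraries overlapped theirs, and the log2 changes were -0.53 ± 0.05 in WT-MMI, -0.26 ± 0.05 in MD and -0.21 ± 0.06 in MOATP, with adjusted p of 3.55e-10, 4.17e-04 and 0.00708. Sc5d in striatum ran from 49.3 to 62.5 CPM in WT-MMI (median 57.4) and from 51.3 to 65.7 CPM in MD (median 62.3), against 72.6 to 83.3 CPM in WT (median 77.2). It ran from 50.5 to 60.6 CPM in MOATP (median 55.7), against 70.3 to 85.1 CPM in WTa (median 83.6). For Sc5d in striatum, every library of the 3 models lay below every control library, and the log2 changes were -0.45 ± 0.06 in WT-MMI, -0.36 ± 0.06 in MD and -0.55 ± 0.06 in MOATP, with adjusted p of 4.65e-08, 5.05e-06 and 3.97e-09.

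Dhcr7, which completes cholesterol from 7-dehydrocholesterol, likewise fell in all 6. Dhcr7 in cortex had lowest, median and highest values of 29.1, 33.3 and 35.1 CPM in WT-MMI and 32.02, 36.4 and 40.9 CPM in MD, against 40.1, 45.7 and 50.3 CPM in WT. Dhcr7 was at 37.2, 34.1, 33.6, 34.95 and 31.7 CPM in the 5 MOATP libraries, against 43.4, 45.8 and 46.5 CPM in WTa. For Dhcr7 in cortex, the WT-MMI and MOATP libraries all lay below those of their controls, and the MD libraries overlapped theirs, and the log2 changes were -0.47 ± 0.06 in WT-MMI, -0.34 ± 0.06 in MD and -0.40 ± 0.06 in MOATP, with adjusted p of 6.31e-09, 1.25e-05 and 2.94e-06. Dhcr7 in striatum had lowest, median and highest values of 36.9, 46.96 and 54.5 CPM in WT-MMI and 37.2, 43.4 and 53.5 CPM in MD, against 48.1, 53.7 and 61.02 CPM in WT. Dhcr7 in MOATP striatum had 33.8, 38.5 and 41.3 CPM, against 49.7, 53.2 and 59.6 CPM in WTa. For Dhcr7 in striatum, the MOATP libraries all lay below those of their controls, and the WT-MMI and MD libraries overlapped theirs, and the log2 changes were -0.26 ± 0.08 in WT-MMI, -0.28 ± 0.08 in MD and -0.50 ± 0.08 in MOATP, with adjusted p of 0.00689, 0.00812 and 1.98e-05.

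Ebp, the sterol isomerase between demethylation and Sc5d, changed by less and was called in 5 of the 6. Ebp in cortex ran from 12.5 to 15.4 CPM in WT-MMI (median 14.6) and from 12.8 to 17.1 CPM in MD (median 16.2), against 16.6 to 19.8 CPM in WT (median 17.2). It was at 13.1, 13.8, 16.3, 13.1 and 16.2 CPM in the 5 MOATP libraries, against 14.6 to 17.02 CPM in WTa (median 16.3). For Ebp in cortex, the WT-MMI libraries all lay below those of their controls, and the MD and MOATP libraries overlapped theirs, and the log2 changes were -0.31 ± 0.07 in WT-MMI, -0.19 ± 0.07 in MD and -0.16 ± 0.08 in MOATP, with adjusted p of 4.54e-04, 0.0480 and 0.151. Ebp in striatum ran from 18.6 to 22.97 CPM in WT-MMI (median 21.01) and from 17.7 to 23.8 CPM in MD (median 21.7), against 21.6 to 26.5 CPM in WT (median 24.8). It ran from 18.1 to 21.8 CPM in MOATP (median 20.8), against 22.5 to 29.1 CPM in WTa (median 24.4). For Ebp in striatum, the MOATP libraries all lay below those of their controls, and the WT-MMI and MD libraries overlapped theirs, and the log2 changes were -0.21 ± 0.06 in WT-MMI, -0.19 ± 0.06 in MD and -0.30 ± 0.07 in MOATP, with adjusted p of 0.00897, 0.0230 and 8.06e-04.

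Sqle, the epoxidase that sets the pace of the sterol steps, was called lower in both tissues of WT-MMI, at -0.43 (adjusted p = 2.95e-08) in cortex and -0.52 (adjusted p = 3.56e-07) in striatum. In MD it was at -0.13 (adjusted p = 0.0757) in cortex and -0.38 (adjusted p = 1.24e-04) in striatum, and in MOATP at -0.24 (adjusted p = 0.00265) and -0.48 (adjusted p = 7.96e-06). Hsd17b7, a sterol ketone reductase, was at -0.44 (adjusted p = 7.45e-06) in WT-MMI cortex, -0.36 (adjusted p = 2.75e-04) in MD cortex and -0.27 (adjusted p = 0.0117) in MOATP cortex. In striatum Hsd17b7 was at -0.13 (adjusted p = 0.243) in WT-MMI, -0.40 (adjusted p = 7.36e-04) in MD and -0.35 (adjusted p = 0.00360) in MOATP. Lss, which closes squalene epoxide to lanosterol, was called in MD cortex, at -0.14 (adjusted p = 0.0320), and in MOATP striatum, at -0.27 (adjusted p = 0.00987). Tm7sf2, a sterol reductase after Cyp51, was called in MOATP striatum alone, at -0.32 (adjusted p = 0.0134). That call was lost with all libraries as labelled, at -0.25 (adjusted p = 0.0728). Tm7sf2 was itself higher in WTa than in WT striatum, at 0.34 (adjusted p = 0.0166 by edgeR). All 11 squalene and sterol enzymes were called lower in MOATP striatum, and none was called higher in any of the 6 comparisons.

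**Figure D2:**
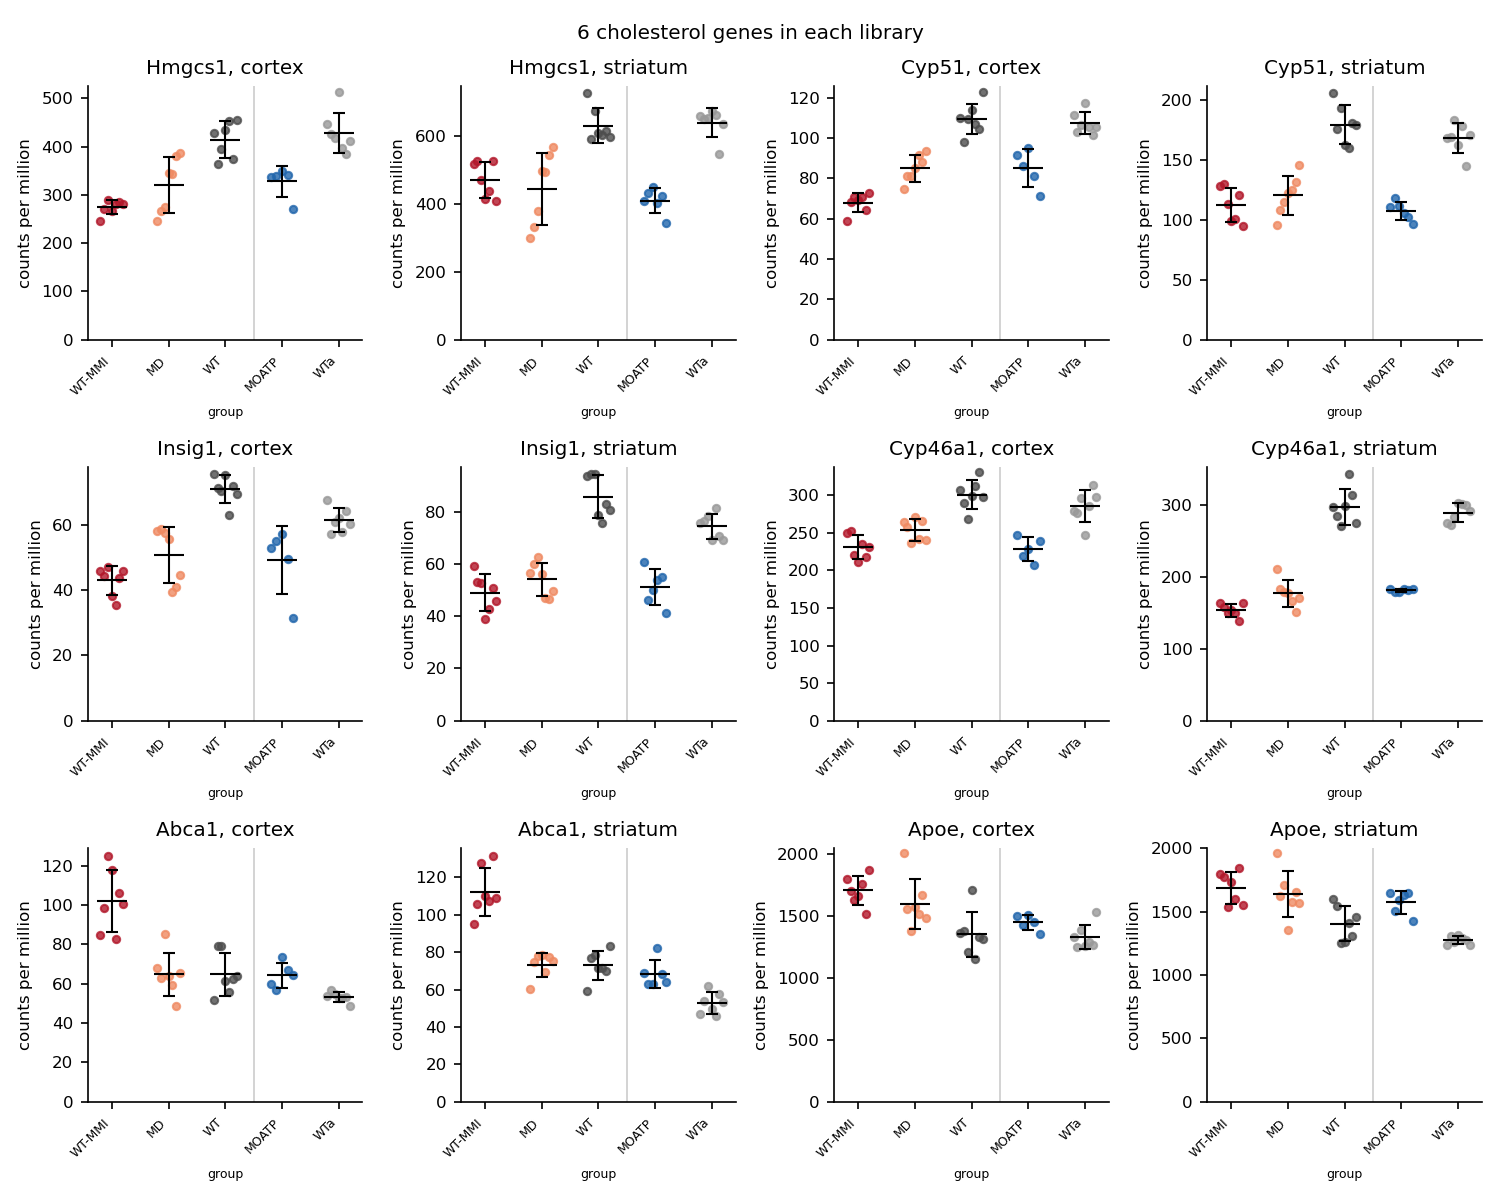
CPM of 6 genes in each library (points) with the mean (line) and SD (bar) of each group, in cortex and striatum, with the models left of their controls (a grey line parts the 2 sets of groups). Hmgcs1, Cyp51, Insig1 and Cyp46a1 are lower in the models, and Abca1 is high in WT-MMI alone of the groups compared with WT.

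Among the 7 regulators, Insig1 and Srebf2 fell most widely. Insig1 retains SCAP in the endoplasmic reticulum and is itself a target of SREBP2. Insig1 in cortex had lowest, median and highest values of 35.4, 44.2 and 47.1 CPM in WT-MMI and 39.5, 55.5 and 58.8 CPM in MD, against 63.02, 71.2 and 75.5 CPM in WT. Insig1 was at 53, 54.98, 57.3, 49.5 and 31.3 CPM in the 5 MOATP libraries, against 57.2, 60.8 and 67.4 CPM in WTa. For Insig1 in cortex, the WT-MMI and MD libraries all lay below those of their controls, and the MOATP libraries overlapped theirs, and the log2 changes were -0.72 ± 0.10 in WT-MMI, -0.48 ± 0.10 in MD and -0.32 ± 0.11 in MOATP, with adjusted p of 3.06e-07, 3.33e-04 and 0.0292. Insig1 in striatum had lowest, median and highest values of 38.97, 50.98 and 59.2 CPM in WT-MMI and 46.7, 56.1 and 62.9 CPM in MD, against 75.7, 83.1 and 94.5 CPM in WT. Insig1 in MOATP striatum had 41.1, 51.9 and 60.6 CPM, against 69.3, 75.9 and 81.5 CPM in WTa. For Insig1 in striatum, every library of the 3 models lay below every control library, and the log2 changes were -0.81 ± 0.08 in WT-MMI, -0.67 ± 0.08 in MD and -0.54 ± 0.09 in MOATP, with adjusted p of 4.87e-10, 6.93e-08 and 1.25e-05. Insig1 in the 5 MOATP cortex libraries included 1 low value, 31.3 CPM, in the library numbered 6, which was the lowest of the 5 for 19 of the 34 members, Hmgcs1, Cyp51 and Msmo1 among them. That library also had the highest share of reads in no annotated gene of the kept cortex libraries, 11.7%. Leaving out any 1 MOATP or WTa cortex library gave 14 to 17 members called, beside 2936 to 3455 of all genes (3569 with none of them left out). The call of Insig1 there was lost without that library (adjusted p = 0.115) or without WTa cortex 1 (adjusted p = 0.0561).

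Insig2, the paralog of Insig1, was called lower in WT-MMI and MD and not in MOATP. Insig2 in cortex ran from 29.4 to 35.7 CPM in WT-MMI (median 31.8) and from 32.3 to 37.4 CPM in MD (median 34.5), against 37.3 to 43.5 CPM in WT (median 39.6). It was at 40.5, 40.8, 35.98, 35.7 and 37.8 CPM in the 5 MOATP libraries, against 33.6 to 44.5 CPM in WTa (median 39.4). For Insig2 in cortex, the WT-MMI libraries all lay below those of their controls, and the MD and MOATP libraries overlapped theirs, and the log2 changes were -0.34 ± 0.05 in WT-MMI, -0.20 ± 0.05 in MD and -0.04 ± 0.06 in MOATP, with adjusted p of 2.57e-06, 0.00561 and 0.684. Insig2 in striatum ran from 34.3 to 40.4 CPM in WT-MMI (median 37.2) and from 36.6 to 43.1 CPM in MD (median 40.4), against 41.04 to 51.4 CPM in WT (median 43.9). It ran from 38.9 to 44.4 CPM in MOATP (median 42.1), against 42.1 to 46.01 CPM in WTa (median 43.97). For Insig2 in striatum, the WT-MMI libraries all lay below those of their controls, and the MD and MOATP libraries overlapped theirs, and the log2 changes were -0.30 ± 0.05 in WT-MMI, -0.18 ± 0.05 in MD and -0.08 ± 0.05 in MOATP, with adjusted p of 4.46e-06, 0.00596 and 0.257. Srebf2, the source of SREBP2, was at -0.41 (adjusted p = 3.43e-07) in WT-MMI cortex and -0.55 (adjusted p = 9.8e-09) in WT-MMI striatum. In MD Srebf2 was called in striatum, at -0.35 (adjusted p = 8.69e-05), and not in cortex, at -0.15 (adjusted p = 0.0637). In MOATP it was at -0.18 (adjusted p = 0.0375) in cortex and -0.29 (adjusted p = 0.00146) in striatum. The cortex call was lost without MOATP 6 (adjusted p = 0.140) or 5, and without WTa 1, 2, 3, 4 or 6, at adjusted p of 0.0501 or more. Srebf1, whose product drives fatty acid genes and which is a target of LXR, was called once, higher in WT-MMI cortex, at 0.28 (adjusted p = 0.0144). Nr1h3, which encodes LXR alpha and had few counts, was called lower in WT-MMI cortex, at -0.46 (adjusted p = 0.0377), in WT-MMI striatum, at -0.56 (adjusted p = 0.00836), and in MOATP striatum, at -0.53 (adjusted p = 0.0322). That last call was lost without MOATP 1, 2, 3 or 5 or WTa 2, 6 or 7, at adjusted p up to 0.104. Scap and Nr1h2, which encodes LXR beta, were called in none of the 6 comparisons, with changes from -0.12 to 0.10.

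Of the 9 transport and removal genes, Stard4, a carrier of sterol between membranes and an SREBP2 target, fell in all 6 comparisons. Stard4 in cortex had lowest, median and highest values of 19.3, 22.02 and 23.7 CPM in WT-MMI and 26.6, 29.8 and 34.3 CPM in MD, against 35, 36.8 and 39.2 CPM in WT. Stard4 was at 34.1, 30.4, 31.1, 33.2 and 25.8 CPM in the 5 MOATP libraries, against 36.9, 39.4 and 42.7 CPM in WTa. For Stard4 in cortex, every library of the 3 models lay below every control library, and the log2 changes were -0.76 ± 0.06 in WT-MMI, -0.29 ± 0.06 in MD and -0.38 ± 0.06 in MOATP, with adjusted p of 2.23e-13, 1.96e-04 and 1.8e-05. Stard4 in striatum had lowest, median and highest values of 19.5, 23.2 and 29.4 CPM in WT-MMI and 24.9, 28.1 and 29.5 CPM in MD, against 31.8, 34.6 and 41.1 CPM in WT. Stard4 in MOATP striatum had 24.5, 27.8 and 30.6 CPM, against 33.4, 38.99 and 43.3 CPM in WTa. For Stard4 in striatum, every library of the 3 models lay below every control library, and the log2 changes were -0.51 ± 0.07 in WT-MMI, -0.34 ± 0.07 in MD and -0.47 ± 0.08 in MOATP, with adjusted p of 7.34e-07, 6.88e-04 and 1.86e-05.

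Cyp46a1, the neuronal enzyme that makes 24-hydroxycholesterol, had the largest fall of the list in striatum in each model. Cyp46a1 in cortex had lowest, median and highest values of 212, 231 and 252 CPM in WT-MMI and 236, 258 and 271 CPM in MD, against 269, 299 and 332 CPM in WT. Cyp46a1 was at 247, 219, 229, 208 and 239 CPM in the 5 MOATP libraries, against 247, 286 and 314 CPM in WTa. For Cyp46a1 in cortex, the WT-MMI and MOATP libraries all lay below those of their controls, and the MD libraries overlapped theirs, and the log2 changes were -0.38 ± 0.05 in WT-MMI, -0.25 ± 0.05 in MD and -0.32 ± 0.06 in MOATP, with adjusted p of 1.02e-07, 3.25e-04 and 3.34e-05. Cyp46a1 in striatum had lowest, median and highest values of 138, 154 and 164 CPM in WT-MMI and 151, 178 and 212 CPM in MD, against 271, 297 and 343 CPM in WT. Cyp46a1 in MOATP striatum had 179, 182 and 183 CPM, against 272, 293 and 303 CPM in WTa. For Cyp46a1 in striatum, every library of the 3 models lay below every control library, and the log2 changes were -0.95 ± 0.05 in WT-MMI, -0.75 ± 0.05 in MD and -0.68 ± 0.06 in MOATP, with adjusted p of 2.71e-17, 5.33e-14 and 5.2e-12. The fall was larger in striatum than in cortex: the change in striatum minus that in cortex was -0.58 ± 0.07 (SE, adjusted p = 9.92e-09) in WT-MMI, -0.50 ± 0.07 (SE, adjusted p = 9.55e-07) in MD and -0.36 ± 0.08 (SE, adjusted p = 0.00207) in MOATP. With all libraries as labelled, the MOATP difference was -0.16 (adjusted p = 0.359) and was not called. Restored libraries there carry the other tissue's genes, so that fit mixes the tissues and cannot decide on a difference between them. Wild-type levels of Cyp46a1 were 88.6 ± 5.96 CPM per kb of exon in striatum and 90.5 ± 6.55 in cortex (SD, n = 14 each).

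Npc2, which hands cholesterol out of lysosomes, fell in all 6 comparisons by small amounts. Npc2 in cortex ran from 52.95 to 63.8 CPM in WT-MMI (median 60.5) and from 47.5 to 66.8 CPM in MD (median 58.01), against 58.8 to 82.4 CPM in WT (median 68.2). It was at 54.4, 52.2, 55.8, 52.9 and 48.9 CPM in the 5 MOATP libraries, against 59.9 to 68.2 CPM in WTa (median 67.1). For Npc2 in cortex, the MOATP libraries all lay below those of their controls, and the WT-MMI and MD libraries overlapped theirs, and the log2 changes were -0.22 ± 0.06 in WT-MMI, -0.24 ± 0.06 in MD and -0.31 ± 0.07 in MOATP, with adjusted p of 0.00468, 0.00367 and 9.20e-04. Npc2 in striatum ran from 110.5 to 139.7 CPM in WT-MMI (median 125) and from 109.9 to 130.2 CPM in MD (median 119), against 128 to 163 CPM in WT (median 138). It ran from 100.4 to 113 CPM in MOATP (median 109), against 119 to 145 CPM in WTa (median 128). For Npc2 in striatum, the MOATP libraries all lay below those of their controls, and the WT-MMI and MD libraries overlapped theirs, and the log2 changes were -0.14 ± 0.05 in WT-MMI, -0.23 ± 0.06 in MD and -0.26 ± 0.06 in MOATP, with adjusted p of 0.0376, 0.00211 and 7.62e-04. Npc1, its membrane partner, was called in none.

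Apoe, the main apolipoprotein of brain and a product of astrocytes, was called higher in 5 of the 6 comparisons in the edgeR fit of all groups. An edgeR block on same-numbered libraries lost the calls in WT-MMI cortex (adjusted p = 0.0533), MD cortex (0.0557) and MD striatum (0.0554). The MD cortex call was also lost with all libraries as labelled (adjusted p = 0.0888). The MD striatum call was lost with only the groups compared in the fit (adjusted p = 0.0535). Apoe in cortex ran from 1511 to 1869 CPM in WT-MMI (median 1698) and from 1380 to 2003 CPM in MD (median 1551), against 1148 to 1709 CPM in WT (median 1325). It was at 1498, 1424, 1508, 1450 and 1351 CPM in the 5 MOATP libraries, against 1251 to 1526 CPM in WTa (median 1291). For Apoe in cortex, the libraries of each of the 3 models overlapped those of their controls, and the log2 changes were 0.34 ± 0.07 in WT-MMI, 0.24 ± 0.07 in MD and 0.12 ± 0.08 in MOATP, with adjusted p of 1.50e-04, 0.00881 and 0.259. Apoe in striatum ran from 1539 to 1849 CPM in WT-MMI (median 1732) and from 1357 to 1967 CPM in MD (median 1628), against 1252 to 1598 CPM in WT (median 1411). It ran from 1425 to 1651 CPM in MOATP (median 1611), against 1235 to 1313 CPM in WTa (median 1277). For Apoe in striatum, the MOATP libraries all lay above those of their controls, and the WT-MMI and MD libraries overlapped theirs, and the log2 changes were 0.27 ± 0.06 in WT-MMI, 0.22 ± 0.06 in MD and 0.30 ± 0.06 in MOATP, with adjusted p of 5.44e-04, 0.00701 and 3.52e-04.

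Abca1, which loads cholesterol onto Apoe and is a target of LXR, rose in WT-MMI and in MOATP striatum. It was picked for its full values after they were seen. Abca1 in cortex had lowest, median and highest values of 82.7, 100.4 and 125 CPM in WT-MMI and 48.8, 63.9 and 84.98 CPM in MD, against 51.4, 62.5 and 79.3 CPM in WT. Abca1 was at 59.8, 56.8, 73.3, 66.9 and 64.5 CPM in the 5 MOATP libraries, against 48.4, 53.2 and 56.9 CPM in WTa. For Abca1 in cortex, the WT-MMI libraries all lay above those of their controls, and the MD and MOATP libraries overlapped theirs, and the log2 changes were 0.66 ± 0.10 in WT-MMI, 0.00 ± 0.10 in MD and 0.27 ± 0.11 in MOATP, with adjusted p of 2.89e-06, 0.999 and 0.0808. Abca1 in striatum had lowest, median and highest values of 94.9, 109 and 132 CPM in WT-MMI and 60.5, 75.4 and 78.2 CPM in MD, against 59.1, 71.7 and 83.5 CPM in WT. Abca1 in MOATP striatum had 62.8, 66.2 and 82.3 CPM, against 45.7, 53.3 and 62.03 CPM in WTa. Those MOATP values lay within the range of WT striatum. Abca1 was itself lower in WTa than in WT striatum, at -0.47 (adjusted p = 1.32e-04 by edgeR). For Abca1 in striatum, the WT-MMI and MOATP libraries all lay above those of their controls, and the MD libraries overlapped theirs, and the log2 changes were 0.62 ± 0.08 in WT-MMI, 0.01 ± 0.08 in MD and 0.37 ± 0.08 in MOATP, with adjusted p of 2.18e-08, 0.965 and 6.66e-04. Soat1, which stores cholesterol as esters, was called in MOATP striatum, at 0.37 (adjusted p = 0.0266), a call lost without MOATP 4 or 6 or WTa 6 (adjusted p up to 0.0654). Abcg1, the other LXR-driven exporter of the list, was called in MD striatum alone, lower at -0.21 (adjusted p = 0.00663). Lrp1, a receptor for Apoe, was called in none in the edgeR fit of all groups, with changes from 0.03 to 0.20. In MOATP striatum Lrp1 was at 0.20 (adjusted p = 0.0526) there, and it was called higher by DESeq2 (adjusted p = 0.0487), in the edgeR fit of only MOATP and WTa (adjusted p = 0.00297) and with all libraries as labelled (adjusted p = 0.0329).

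With all libraries as labelled, 7 members were called in MOATP cortex (all lower) and 24 in striatum. Over all genes, 2080 were called in cortex and 3566 in striatum, against 3569 and 4098 without the 3 libraries. In cortex Fdft1, Nsdhl, Hsd17b7, Sc5d, Dhcr7, Stard4 and Cyp46a1 were the members called with those libraries, for example Dhcr7 at -0.46 (adjusted p = 1.89e-04) and Stard4 at -0.41 (adjusted p = 6.48e-05). Lost there were Hmgcs1, at -0.15 (adjusted p = 0.430), Mvd, at -0.28 (adjusted p = 0.0600), Sqle, at -0.13 (adjusted p = 0.305), Cyp51, at -0.11 (adjusted p = 0.544), and Msmo1, at -0.04 (adjusted p = 0.897). Srebf2, at -0.37 (adjusted p = 0.112), and Insig1, at -0.20 (adjusted p = 0.257), were not called either. Acat2, at 0.01 (adjusted p = 0.965), and Npc2, at 0.07 (adjusted p = 0.769), changed sign among the 16 called without them. The libraries of MD and WT are the same in both fits, yet the members called between them in cortex fell to 7, against 19 without the 3, in fits where the groups of a tissue share an estimate of the spread. Calls over all genes fell as well, to 1221, against 3760 without the 3. A fit of only MD and WT cortex called 17 members and 2810 of all genes.

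Set directly against WT-MMI, MD had 7 of the 18 synthesis genes higher in cortex and Abca1 lower in both tissues. The log2 changes in this comparison use no WT library, though the other groups of a tissue enter the estimate of the spread. In cortex 9 members were called higher and 2 lower, beside 11% of all genes (5.7% higher and 5.29% lower). Stard4 differed by 0.46 ± 0.06 (SE, adjusted p = 6.19e-07), Msmo1 by 0.38 (adjusted p = 1.98e-04), Cyp51 by 0.33 (adjusted p = 1.08e-04), Sqle by 0.30 (adjusted p = 1.54e-04) and Sc5d by 0.27 (adjusted p = 7.75e-04). Fdft1, at 0.26 (adjusted p = 0.00156), Srebf2, at 0.26 (adjusted p = 0.00178), Pmvk, at 0.21 (adjusted p = 0.0287), and Nsdhl, at 0.20 (adjusted p = 0.0267), were also higher in MD. For 6 members every MD cortex library lay above every WT-MMI library, which 1.15% of all genes did (Pmvk, Fdft1, Sqle, Cyp51, Sc5d and Stard4). Abca1 was lower, at -0.66 ± 0.10 (SE, adjusted p = 2.32e-05), as was Srebf1, at -0.36 (adjusted p = 0.00684).

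In striatum the same comparison called 3 members higher and 4 lower, beside 12.3% of all genes (6.8% higher and 5.49% lower). Abca1 was again lower in MD, at -0.62 ± 0.08 (SE, adjusted p = 3.07e-07), and Srebf1 was at -0.25 (adjusted p = 0.0283). Hsd17b7, at -0.27 (adjusted p = 0.0361), and Lss, at -0.22 (adjusted p = 0.0447), were lower as well. Fdft1, at 0.20 (adjusted p = 0.00493), Srebf2, at 0.20 (adjusted p = 0.0345), and Cyp46a1, at 0.20 (adjusted p = 0.00891), were higher. With the 3 libraries put back, 5 members were called in cortex and 2 in striatum, beside 516 and 1212 of all genes. A fit of only these groups called 10 in cortex and 2 in striatum, beside 1411 and 1256 of all genes. The main fit called 1805 and 2007 of all genes.

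**Figure D3:**
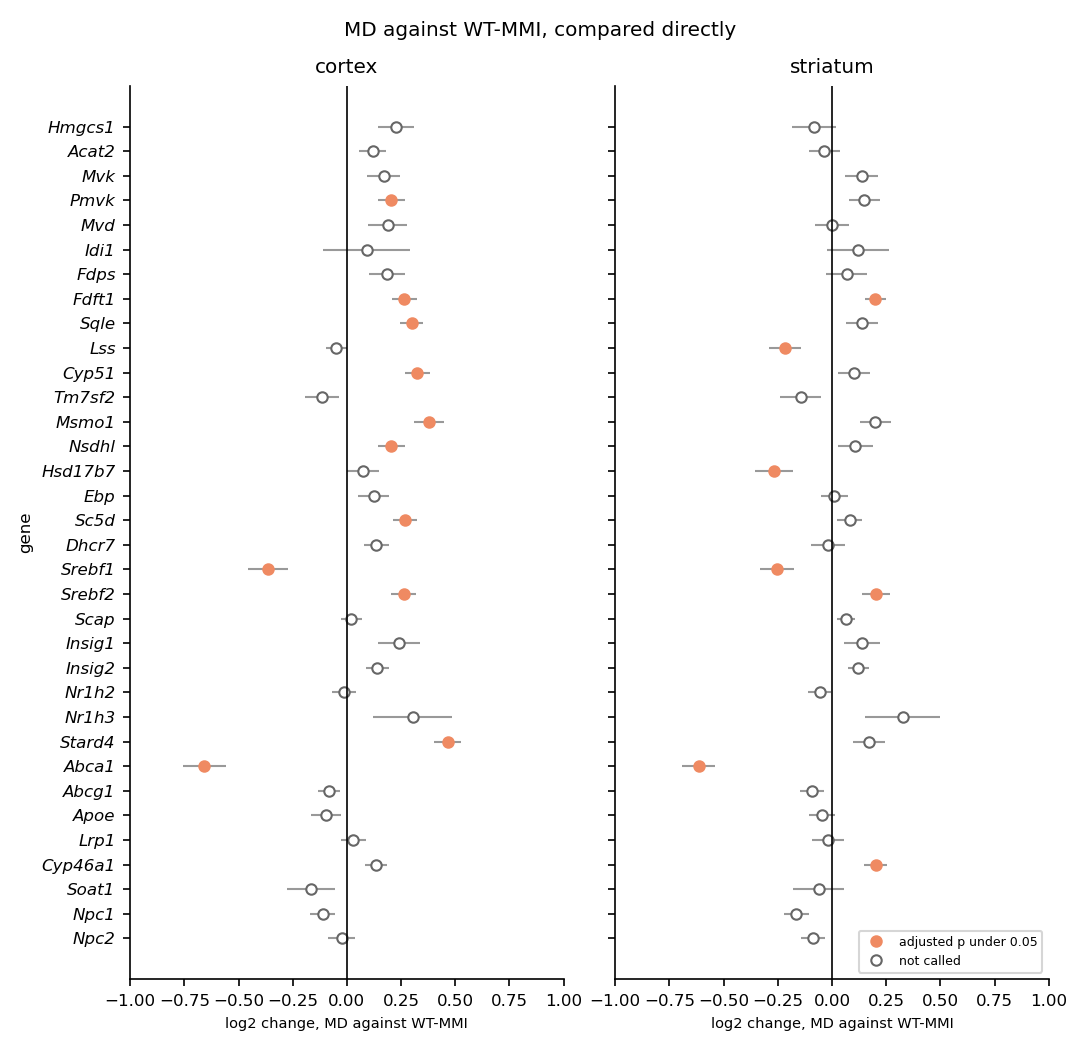
Log2 change of each gene in MD against WT-MMI (points, with SE as bars) in cortex and striatum, filled where the adjusted p is under 0.05. Most synthesis genes lie right of 0 in cortex, and Abca1 lies farthest left in both tissues.

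The change in MOATP was set against that in WT-MMI, each against its own controls. In cortex 4 members differed, beside 3.23% of all genes (1.44% higher and 1.78% lower), and all had fallen less in MOATP. These were Stard4, with a difference of 0.38 (adjusted p = 0.00885), Cyp51, at 0.35 (adjusted p = 0.0120), Sc5d, at 0.31 (adjusted p = 0.0210), and Insig2, at 0.30 (adjusted p = 0.0248). With all libraries as labelled only Cyp51 of these was called, at 0.58 (adjusted p = 0.0449), while Stard4 was at 0.35 (adjusted p = 0.0666), Insig2 at 0.43 (adjusted p = 0.0783) and Sc5d at 0.28 (adjusted p = 0.183). In striatum Cyp46a1 differed, at 0.28 (adjusted p = 0.0211), the only member of the 34 to do so beside 6.69% of all genes (3.9% higher and 2.79% lower). For the other members the difference did not pass the threshold, which does not show that the models act alike on them. An edgeR block on same-numbered libraries called 0 members in either tissue, beside 66 of all genes in cortex and 348 in striatum. There the 4 cortex members were at adjusted p of 0.447 to 0.695 and Cyp46a1 in striatum at 0.158.

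The 2 wild-type groups differed in members at a share near that of all genes. WTa against WT called 3 of the 34 in cortex (8.82%), beside 6.71% of all genes (2.88% higher and 3.83% lower). In striatum 4 of the 34 were called, beside 11% of all genes (5.2% higher and 5.84% lower). Srebf1 was the largest in both tissues, lower in WTa at -0.51 ± 0.09 (SE, adjusted p = 8.34e-04) in cortex and -0.56 ± 0.08 (SE, adjusted p = 2.07e-05) in striatum. It had 35.5, 38.3 and 45.9 CPM (lowest, median and highest) in WTa cortex, against 47.3, 56.2 and 64.7 CPM in WT cortex, and all 7 WTa libraries lay below all 7 WT libraries in both tissues. Lss, at -0.19 (adjusted p = 0.0138), and Npc1, at -0.21 (adjusted p = 0.0228), were lower in WTa cortex. In striatum Abca1 was lower in WTa, at -0.47 (adjusted p = 1.32e-04), while Fdft1, at 0.22 (adjusted p = 0.00220), and Tm7sf2, at 0.34 (adjusted p = 0.0166), were higher. The median change of the 18 synthesis genes between the wild types was 0.01 in cortex and 0.01 in striatum.

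Striatum held more RNA of most members than cortex in the untreated wild types (WT and WTa, 14 libraries per tissue). Of the 34, 24 were called higher and 4 lower in striatum, beside 70% of all 16977 genes (36.8% higher and 33.2% lower), and 16 of the 18 synthesis genes were higher, with a median log2 difference of 0.31 against 0.02 over all genes. Npc2 differed most, at 0.97 ± 0.04 (SE, adjusted p = 3.38e-32), then Npc1, at 0.80 (adjusted p = 8.77e-27), Cyp51, at 0.65 (adjusted p = 1.22e-19), and Idi1, at 0.65 (adjusted p = 6.95e-07). Lower in striatum were Lrp1, at -0.25 (adjusted p = 1e-05), Tm7sf2, at -0.18 (adjusted p = 0.00956), Nr1h2, at -0.11 (adjusted p = 0.0120), and Stard4, at -0.11 (adjusted p = 0.0302). These tests treat the libraries of both tissues as independent, though same-numbered libraries may share an animal. A block on those numbers also called 24 higher and 4 lower. In levels per kb of exon, Apoe led the list, at 621 ± 53.4 CPM per kb in striatum and 635 ± 65.6 in cortex. Hmgcs1 followed, at 137 ± 9.93 CPM per kb in striatum and 93.1 ± 8.56 in cortex, and Idi1, at 1.22 ± 0.163 and 0.764 ± 0.186 CPM per kb, and Nr1h3, at 0.995 ± 0.170 and 0.881 ± 0.177, were the lowest (SD, n = 14 each). Reads that aligned to more than 1 place were set aside by the counting, which can lower the level of genes with close copies elsewhere.

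**Figure D4:**
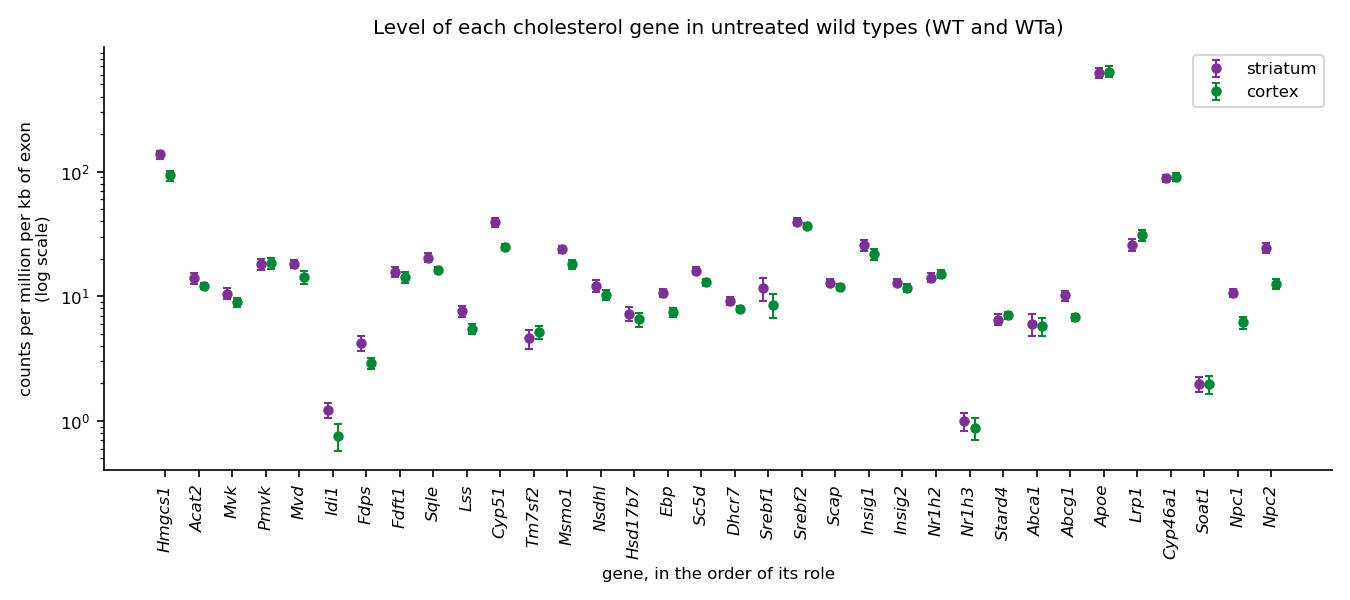
Mean CPM per kb of exon (log scale, SD as bars) of each gene in striatum and cortex of untreated wild types, 14 libraries each. Apoe and Hmgcs1 stand highest and Idi1 and Nr1h3 lowest, and most synthesis genes lie higher in striatum.

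The change itself differed between tissues in few members. Striatum minus cortex called 1 member in WT-MMI (Cyp46a1, above), beside 7.72% of all genes (3.36% higher and 4.36% lower), 1 in MD (Cyp46a1), beside 4.09% of all genes (1.99% higher and 2.1% lower), and 2 in MOATP, beside 2.96% of all genes (1.37% higher and 1.59% lower). The second was Sc5d, which fell more in MOATP striatum, by a difference of -0.34 (adjusted p = 0.00977). With all libraries as labelled, a fit that mixes the tissues, the difference of Cyp46a1 in MOATP was -0.16 (adjusted p = 0.359). A block on same-numbered libraries, which may share an animal, called 4 members in each model. Beside them it called 1861, 1039 and 719 of all genes in WT-MMI, MD and MOATP. In WT-MMI 3 of the 4 had a positive difference (Acat2, Hsd17b7 and Stard4) and 1 a negative one. In MD and MOATP all 4 had a negative difference. The median difference of the 18 synthesis genes was 0.07 in WT-MMI, -0.07 in MD and -0.17 in MOATP, against 0.01 or less in size over all genes.

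Genes next to the pathway were read beside it. The fatty acid and phospholipid list, whose enzymes also answer to SREBP proteins, had 15 genes, and the calls in cortex were 11 lower and 2 higher in WT-MMI, 7 lower and 1 higher in MD and 9 lower and 0 higher in MOATP, where 40%, 22.9% and 21.7% of all genes were called. In striatum the calls were 10 lower and 0 higher, 9 lower and 0 higher and 10 lower and 0 higher in the same order of models, where 38.7%, 21.6% and 25.1% of all genes were called. These shares of all genes are also the background of the sterol and marker lists that follow. Of 35 other sterol handling genes 33 passed the filter (Soat2 and Ch25h did not), and the calls in cortex were 12 lower and 2 higher in WT-MMI, 7 lower and 2 higher in MD and 10 lower and 1 higher in MOATP. In WT-MMI cortex that is 42.4% of the list, near the background. In striatum they were 12 lower and 5 higher, 7 lower and 3 higher and 9 lower and 2 higher. Scd1, the stearoyl-CoA desaturase, was the largest fall of both lists in WT-MMI cortex, at -1.58 (adjusted p = 7.93e-16), followed by Pltp, at -1.05 (adjusted p = 5.88e-08), and the largest rises were Thrsp, a lipogenic protein known as a thyroid hormone target in liver, at 0.88 (adjusted p = 6.95e-07), and Erlin2, at 0.28 (adjusted p = 5.64e-06). MD cortex had Cyp39a1, an oxysterol hydroxylase, at -1.47 (adjusted p = 3.71e-06), Scd1 at -0.58 (adjusted p = 4.12e-06), Thrsp at 0.93 (adjusted p = 8.25e-07) and Erlin1 at 0.19 (adjusted p = 0.0171). In MOATP cortex Cyp39a1 was at -1.09 (adjusted p = 6.76e-04) and Scd1 at -1.09 (adjusted p = 3.23e-10), and the 1 rise was Erlin2, at 0.21 (adjusted p = 0.00192).

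In striatum Scd1 led the falls in every model, at -1.76 (adjusted p = 1.46e-18) in WT-MMI, -0.82 (adjusted p = 6.51e-10) in MD and -1.36 (adjusted p = 1.56e-14) in MOATP. Next were Lcat, which esterifies cholesterol on lipoproteins, at -0.94 (adjusted p = 1.09e-06) in WT-MMI, Scarb1, a lipoprotein receptor, at -0.52 (adjusted p = 4.69e-08) in MD, and Acss2, which makes acetyl-CoA from acetate, at -0.76 (adjusted p = 7.92e-09) in MOATP. Abcg4, an exporter of sterols, rose in all 3, at 0.32 (adjusted p = 5.22e-05), 0.29 (adjusted p = 4.90e-04) and 0.25 (adjusted p = 0.00322) in the same order. The other leading rises were Lrp8, an Apoe receptor, at 0.22 (adjusted p = 0.00794) in WT-MMI, and Gramd1a, a sterol carrier, at 0.21 (adjusted p = 0.00391) in MD and 0.28 (adjusted p = 2.59e-04) in MOATP.

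Markers of mature oligodendrocytes were lower beside these genes. All 12 mature oligodendrocyte markers were called lower in cortex of each model, with median changes of -0.81 in WT-MMI, -0.999 in MD and -0.55 in MOATP. Their summed level was 5052 to 7773 CPM in WT-MMI cortex and 4289 to 7314 CPM in MD cortex, against 9219 to 12100 CPM in WT, and 5414 to 6859 CPM in MOATP, against 8592 to 10250 CPM in WTa. In striatum 7, 12 and 12 of the 12 were lower, with medians of -0.26, -0.44 and -0.39. The sum there was 30630 to 41870 CPM in WT-MMI and 28590 to 37860 CPM in MD, against 37520 to 52060 CPM in WT, and 27840 to 33230 CPM in MOATP, against 35730 to 47060 CPM in WTa. The order of the medians differed between the lists in cortex: the oligodendrocyte median was lowest in MD and the synthesis median was lowest in WT-MMI. Set directly against WT-MMI, however, MD cortex had 0 of the 12 oligodendrocyte markers called, beside 11% of all genes. The summed levels of these markers in MD and WT-MMI cortex overlapped, so a lower level in MD was not shown. In the wild types all 12 oligodendrocyte markers were higher in striatum than in cortex, with a median of 2.08. No marker of any list was at 0 in every library of a group. The part of these cells in the changes of the cholesterol genes was not tested.

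Of 10 astrocyte markers, WT-MMI had 2 lower and 3 higher in cortex and 2 lower and 2 higher in striatum, MD 1 lower and 2 higher in cortex and 0 lower and 2 higher in striatum and MOATP 2 lower and 1 higher in cortex and 2 lower and 2 higher in striatum. Their sum in cortex was 6963 to 8866 CPM in WT-MMI and 7202 to 9535 CPM in MD, against 6721 to 7995 CPM in WT, so those ranges overlapped. It was 6987 to 8439 CPM in MOATP cortex, against 7203 to 8273 CPM in WTa. In striatum the astrocyte sum was 5308 to 6145 CPM in WT-MMI and 5164 to 6726 CPM in MD, against 5197 to 6084 CPM in WT, and 5438 to 6071 CPM in MOATP, against 5533 to 6380 CPM in WTa. Of 7 neuron markers, the calls were 4 lower and 0 higher in cortex and 5 lower and 0 higher in striatum in WT-MMI, 4 lower and 0 higher in cortex and 3 lower and 0 higher in striatum in MD and 4 lower and 0 higher in cortex and 3 lower and 0 higher in striatum in MOATP. The 9 medium spiny neuron markers of striatum, the main neurons of that tissue, had calls in striatum of 8 lower and 0 higher in WT-MMI, 7 lower and 1 higher in MD and 5 lower and 2 higher in MOATP, beside the falls of Cyp46a1 given above. Their sum in striatum was 4431 to 5818 CPM in WT-MMI and 5225 to 6299 CPM in MD, against 7660 to 10270 CPM in WT, and 6421 to 6953 CPM in MOATP, against 7275 to 8206 CPM in WTa.

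Of 8 microglia markers (microglia also make Apoe), WT-MMI had 0 lower and 6 higher in cortex and 0 lower and 7 higher in striatum, MD 0 lower and 7 higher in cortex and 0 lower and 6 higher in striatum and MOATP 1 lower and 0 higher in cortex and 0 lower and 3 higher in striatum. Of the 5 erythroid markers WT-MMI had 5 lower and 0 higher in cortex and 5 lower and 0 higher in striatum, and of the 5 choroid plexus markers 2 lower and 0 higher in cortex and 3 lower and 0 higher in striatum. The erythroid calls were 0 lower and 0 higher in cortex and 0 lower and 0 higher in striatum in MD and 5 lower and 0 higher in cortex and 1 lower and 0 higher in striatum in MOATP. Of 6 endothelial markers WT-MMI had 0 lower and 4 higher in cortex and 0 lower and 3 higher in striatum, and of 7 oligodendrocyte precursor markers 0 lower and 4 higher in cortex and 0 lower and 3 higher in striatum. Of 5 excitatory cortical neuron markers WT-MMI had 0 lower and 1 higher in cortex, and of 6 mural and leptomeningeal markers 0 lower and 2 higher in cortex and 1 lower and 2 higher in striatum. The largest marker changes in WT-MMI cortex were Folr1 (choroid plexus) at -1.94 (adjusted p = 0.0191), Hba-a2 (erythroid) at -1.67 (adjusted p = 1.31e-07), Kdr (endothelial) at 0.71 (adjusted p = 1.01e-04) and Slc1a3 (astrocyte) at 0.69 (adjusted p = 8.42e-12). Those in MD cortex were Opalin (mature oligodendrocyte) at -1.38 (adjusted p = 9.42e-11), Aspa (mature oligodendrocyte) at -1.24 (adjusted p = 6.38e-09), Gfap (astrocyte) at 0.49 (adjusted p = 0.00347) and Slc1a3 (astrocyte) at 0.48 (adjusted p = 8.57e-08). MOATP cortex had Gjb6 (astrocyte) at -0.91 (adjusted p = 1.05e-07), Alas2 (erythroid) at -0.88 (adjusted p = 0.00442), Neurod6 (excitatory cortical neuron) at 0.42 (adjusted p = 1.55e-04) and Slc1a3 (astrocyte) at 0.31 (adjusted p = 5.00e-04). In striatum WT-MMI had Prlr (choroid plexus) at -4.16 (adjusted p = 8.85e-07), Hba-a2 (erythroid) at -1.81 (adjusted p = 3.18e-06), Slc1a3 (astrocyte) at 0.69 (adjusted p = 9.5e-13) and Kdr (endothelial) at 0.67 (adjusted p = 5.92e-05). MD striatum had Pde10a (striatal medium spiny neuron) at -1.09 (adjusted p = 4.41e-09), Rgs9 (striatal medium spiny neuron) at -0.81 (adjusted p = 5.54e-10), Gfap (astrocyte) at 0.55 (adjusted p = 1.95e-05) and C1qc (microglia) at 0.37 (adjusted p = 8.32e-05), and MOATP striatum had Prlr (choroid plexus) at -2.24 (adjusted p = 0.00235), Gjb6 (astrocyte) at -1.16 (adjusted p = 3.6e-09), Aif1 (microglia) at 0.49 (adjusted p = 0.00590) and Tac1 (striatal medium spiny neuron) at 0.49 (adjusted p = 8.2e-07). Whether these cells bear on the cholesterol genes was not tested.

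**Figure D5:**
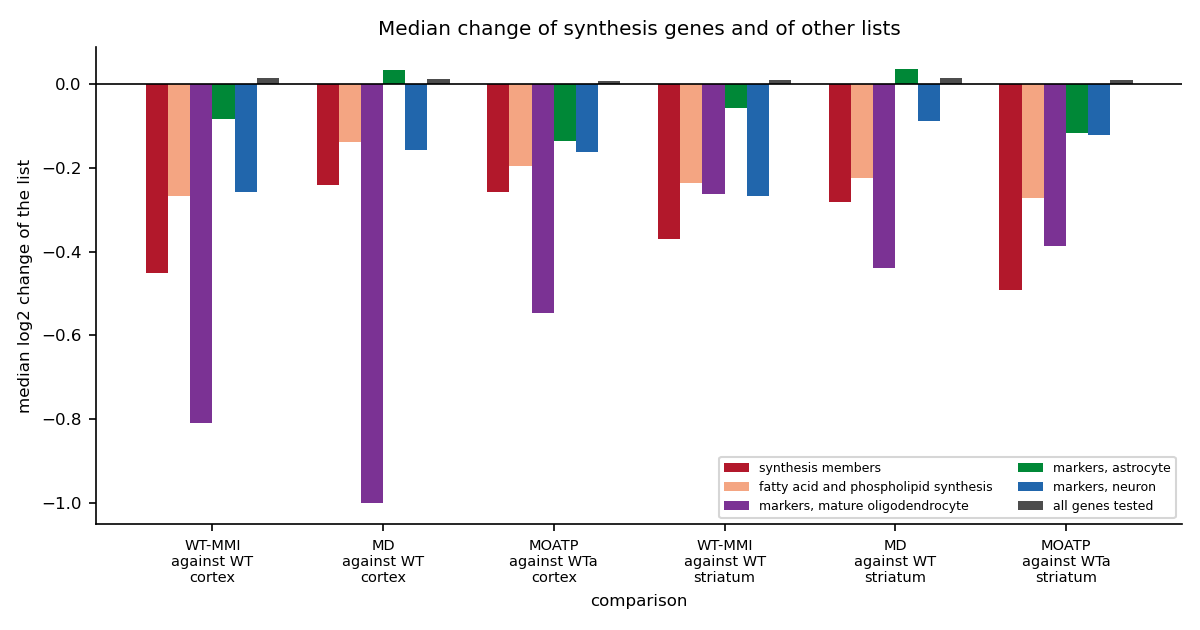
Median log2 change (bars) of the 18 synthesis genes, the fatty acid list, 3 marker lists and all genes tested in each of the 6 comparisons. The synthesis and oligodendrocyte medians are below 0 in all 6, the medians of all genes lie near 0, and the oligodendrocyte bars are longest in cortex.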

How the data were processed

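RNA from cortex and striatum was made into unstranded TruSeq v2 libraries and read as single 75-base reads, per the labels' protocols. The authors deposited raw read counts per Ensembl gene, 1 table for each library. CASAVA, FastQC, Bowtie, TopHat, HTSeq, edgeR and the build GRCm38 are named in the submitters' processing notes, and their versions and settings are not stated there. The 5 closing lines of each table (reads given to no gene) were left out of library sizes. Gene symbols matched 36345 of the 38293 identifiers.

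Counts were tested with edgeR 4.0.16 (R 4.3.3, limma 3.58.1): TMM scaling, filterByExpr by group, robust quasi-likelihood fit, and Benjamini-Hochberg adjustment over the 16415 genes tested in cortex, 16325 in striatum or 16977 in both. All groups of a tissue entered the fit, since they then share an estimate of the spread, and differences between tissues came from a fit of both. The fit was tested on simulated data. The 3 libraries that stood apart were left out, and restoring them was 1 alternative. The others were RLE size factors, no filter on low counts, only the groups compared, DESeq2 1.42.0, a replicate block, and each MOATP or WTa library left out in turn. The members, gene lists and these 3 libraries were chosen with earlier results of these data known. Values in full were given for the 3 largest called changes of each of the 6 model comparisons, for members called in opposite directions (0), and for members called in both tissues of WT-MMI and MD. Of other pathway genes and of markers the 2 largest called changes in each direction were named. No 2 libraries of a group agreed within sampling noise (lowest chi-square per degree of freedom 2.311 over 210 pairs, genes with at least 20 counts). The depth of 7802957 or more counts per library bears on Nr1h3 and Idi1 most, which had the fewest reads per kb. Exons of Fdft1, Lss, Cyp51, Tm7sf2, Srebf1, Scap, Nr1h3 and Npc1 overlap other genes in part. Without strand, reads in the shared stretches cannot be told apart. As a share of exon, these stretches ran from 34 of 2515 bases (Nr1h3) to 774 of 4227 (Fdft1). One item that bears on the knockout lines is not reported here.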

Additional observations from a re-analysis of the deposited data

Results flagged for a closer look

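In 7 of 170 groups of libraries (a gene in a tissue and group), 1 library lay far from the others by Dixon's criterion, where chance gives about 1 in 20. In the models these were Hmgcs1 at 270.6 CPM in MOATP cortex 6, against 338 to 350.4 CPM in the other 4, Fdps at 11.52 CPM in MD striatum 3, and Mvd at 21.98 CPM in WT-MMI cortex 2, the highest of its group. In the controls they were Apoe at 1709 CPM in WT cortex 6, Sc5d at 71.79 CPM in WTa cortex 4, Hmgcs1 at 547.1 CPM in WTa striatum 6 and Nsdhl at 27.66 CPM in WTa striatum 4. The Apoe and Sc5d libraries were the highest of their groups and the Hmgcs1 and Nsdhl libraries the lowest.

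Changes that differed between models or tissues, tested as the difference itself with edgeR, were 9 in number. The change in MOATP cortex minus that in WT-MMI cortex was 0.3532 for Cyp51, 0.3132 for Sc5d, 0.298 for Insig2 and 0.3804 for Stard4 on the log2 scale. With all libraries as labelled, only Cyp51 of these was called. In striatum the same difference was 0.2762 for Cyp46a1. With the replicate block, none of these differences between MOATP and WT-MMI was called. The change in striatum minus that in cortex was -0.5802 for Cyp46a1 in WT-MMI, -0.5037 in MD and -0.3564 in MOATP, and -0.3384 for Sc5d in MOATP. For MOATP, all libraries as labelled kept the call of Sc5d and lost that of Cyp46a1, in a fit that mixes the tissues and so cannot decide on either.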

How the results depend on the processing

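Counts of members called moved by more than 1.5 times as follows. With all libraries as labelled, they were 7 for MD against WT in cortex (main 19), 7 for MOATP against WTa in cortex (16), 5 and 2 for MD against WT-MMI in cortex and striatum (11 and 7), 1 for WTa against WT in cortex (3), 1 for the MOATP change minus the WT-MMI change in cortex (4) and 5 for the MOATP change in striatum minus cortex (2). Over all genes the same comparisons called, in that order, 1221 (main 3760), 2080 (3569), 516 and 1212 (1805 and 2007), 161 (1101), 166 (530) and 569 (503). Log2 changes in MOATP cortex with all libraries as labelled reversed for Acat2 (0.0117) and Npc2 (0.073). With only the groups compared in the fit, counts were 5 for WTa against WT in cortex, 2 for MD against WT-MMI in striatum, 3 for MOATP minus WT-MMI in striatum (1) and 4 for MOATP in striatum minus cortex. DESeq2 called 5 for WTa against WT in cortex, 2 for MOATP minus WT-MMI in striatum and 2 for the WT-MMI change in striatum minus cortex (1), where RLE size factors also gave 2. Over all genes, only the groups compared called 1094, 1256, 1387 and 773 in its order above (main 1101, 2007, 1092 and 503). DESeq2 called 1321, 1288 and 1361 of all genes in its order (main 1101, 1092 and 1310), and RLE size factors 1253. The cause of these moves was not tested. Leaving out a MOATP or WTa library gave 14 to 17 members in cortex (16) and 24 to 25 in striatum (25). Over all genes it called 2936 to 3455 in cortex (main 3569) and 3458 to 4026 in striatum (main 4098).

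Same-numbered libraries of 2 groups in a tissue had correlations of their deviations from -0.161 to 0.447. Most pairs were over 0.1 only for MD and WT in cortex (4 of 5 pairs), with 3 of 7 for MD and WT-MMI in cortex and 2 or fewer for the others. The labels give the numbers no meaning and not every pair was over 0.1, so the numbers were not taken as pairs. Across tissues the titles repeat the same numbers, and 26 of 33 pairs were over 0.1, with the lowest at -0.001. Same-numbered libraries of both tissues may therefore share an animal. The main tests between tissues treat them as independent, which the block does not. The replicate block, which between groups keeps only the numbers they share, gave 10 and 11 members for MD against WT in cortex and striatum (19 and 22), 0 in both tissues for MOATP minus WT-MMI, and 4 for each model's change in striatum minus cortex (1, 1 and 2). Over all genes the block called, in that order, 2017 and 1667 (3760 and 3528), 66 and 348 (530 and 1092), and 1861, 1039 and 719 (1310, 694 and 503). Of the 12 members lower in all 6 comparisons, the block called 4 in all 6 (Cyp51, Sc5d, Stard4 and Cyp46a1), as did all libraries as labelled for 4, while 10 were called with only the groups compared and with no filter, and 12 by DESeq2 and with RLE size factors. The block also called Abca1 (adjusted p = 0.0161) and Apoe (adjusted p = 0.00807) higher in MOATP cortex and Lrp1 (adjusted p = 0.0106) in MOATP striatum, by edgeR. It lost the calls of Apoe in WT-MMI cortex (adjusted p = 0.0533), MD cortex (0.0557) and MD striatum (0.0554).

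Among single called values, DESeq2 and RLE size factors each kept the direction and the call of all 192. No filter kept 180, only the groups compared 178, the block 152 and all libraries as labelled 138, and the rest kept the direction without the call but for the 2 reversed. Depth limits Nr1h3 and Idi1 most.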
